A study of Homo sapiens with 4 samples.

Results

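The E2F transcription factors, the pocket proteins that bind them, and the factors MYBL2 and FOXM1 control when cell cycle genes are transcribed. The 10 genes described here, E2F1, E2F2, E2F3, E2F4, E2F7, E2F8, RBL1, RBL2, MYBL2, and FOXM1, were picked by symbol from the 20372 genes of the deposited count table. The symbol RBL1 stands on 2 rows, so that 11 rows carry a symbol of the group. All 10 genes passed the filter on low counts and were tested, RBL1 through the row of ENSG00000080839. The other RBL1 row, ENSG00000269846, had counts of 0 and 1 at 6 h and 1 and 1 at 24 h and was not tested.

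TPC1 cells, an established line from a human papillary thyroid carcinoma, carry a CCDC6-RET fusion, and BLU6864 inhibits the RET kinase. RNA of TPC1 cells exposed to BLU6864 for 6 h or for 24 h was sequenced, and the libraries used here are 2 per time. The 6 h libraries held 23917056 and 26829072 counts in total and the 24 h ones 26486456 and 27457040, replicate 1 first in each pair, and this order is kept throughout. Vehicle libraries were not analysed here, so that hours of drug exposure and hours in culture cannot be told apart. The BLU6864 dose is 100 µM per the labels, whereas the methods name a nanomolar dose. The labels also mark both 24 h libraries and neither 6 h library as a re-analysis, which cannot be told apart from time.

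E2F1, E2F2, and E2F3 are known as activators of genes for the start of DNA replication, and E2F4 acts mainly as a repressor together with the pocket proteins p107, encoded by RBL1, and p130, encoded by RBL2. E2F4 and p130 join the MuvB proteins in the DREAM complex of resting cells, and in cycling cells cyclin-dependent kinases release the pocket proteins, after which MYBL2 and then FOXM1 work with MuvB on genes of mitosis. E2F7 and E2F8 are atypical repressors that bind DNA without a DP partner, and several genes of the group are themselves known E2F targets.

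Because several genes of the group are known E2F targets, promoters are shown with the letters of an E2F motif. RefSeq promoter windows, from 250 bases before to 50 bases after a transcription start, were matched by symbol for 8 of the 10 genes, namely E2F1, E2F2, E2F3, E2F4, E2F7, RBL1, RBL2, and MYBL2, in 10 windows, and E2F8 and FOXM1 are given by name only. The E2F motif searched was TTTGGCGC, TTTCGCGC, TTTCCCGC, or TTTGCCGC on either strand, and a core of 6 letters, positions 2 to 7 of each form (TTGGCG in the first), was searched as well, so that every match of the 8 letters is also a match of the core. Sequences run 5′ to 3′ on the strand of the gene in build GRCh38.p14, and capitals mark every match of the 8-letter motif or of the core on either strand. They are those of E2F1 (chr20:33686336-33686635, minus strand), E2F2 (chr1:23531184-23531483, minus strand), RBL1 (chr20:37095948-37096247, minus strand), MYBL2 (chr20:43666864-43667163, plus strand), the first start of E2F3 (chr6:20401629-20401928, plus strand), and E2F4 (chr16:67191905-67192204, plus strand). E2F3 and E2F4 are shown for comparison with E2F1, E2F2, RBL1, and MYBL2, since their changes, given with the results, differ.
E2F1: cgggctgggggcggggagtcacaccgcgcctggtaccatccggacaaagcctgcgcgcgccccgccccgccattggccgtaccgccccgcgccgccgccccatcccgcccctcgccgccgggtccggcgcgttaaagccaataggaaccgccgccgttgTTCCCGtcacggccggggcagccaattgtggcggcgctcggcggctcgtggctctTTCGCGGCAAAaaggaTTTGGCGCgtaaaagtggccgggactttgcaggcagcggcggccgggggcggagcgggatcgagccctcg
E2F2: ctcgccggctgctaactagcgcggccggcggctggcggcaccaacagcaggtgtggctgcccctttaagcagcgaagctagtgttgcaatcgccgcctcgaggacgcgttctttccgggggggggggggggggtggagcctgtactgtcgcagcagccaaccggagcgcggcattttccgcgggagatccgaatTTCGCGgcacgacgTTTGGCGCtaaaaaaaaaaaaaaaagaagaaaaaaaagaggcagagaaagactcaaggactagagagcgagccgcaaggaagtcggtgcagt
RBL1: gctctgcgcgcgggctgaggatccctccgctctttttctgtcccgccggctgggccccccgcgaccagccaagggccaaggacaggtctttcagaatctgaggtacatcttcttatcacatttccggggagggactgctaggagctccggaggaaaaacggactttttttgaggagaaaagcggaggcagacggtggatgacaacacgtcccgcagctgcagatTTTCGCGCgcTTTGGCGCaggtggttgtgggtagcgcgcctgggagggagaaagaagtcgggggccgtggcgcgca
MYBL2: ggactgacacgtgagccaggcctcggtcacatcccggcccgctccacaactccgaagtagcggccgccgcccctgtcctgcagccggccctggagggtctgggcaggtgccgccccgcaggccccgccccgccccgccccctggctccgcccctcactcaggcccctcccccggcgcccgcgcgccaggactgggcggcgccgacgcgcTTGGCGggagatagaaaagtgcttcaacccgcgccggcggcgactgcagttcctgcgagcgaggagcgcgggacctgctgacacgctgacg
E2F3: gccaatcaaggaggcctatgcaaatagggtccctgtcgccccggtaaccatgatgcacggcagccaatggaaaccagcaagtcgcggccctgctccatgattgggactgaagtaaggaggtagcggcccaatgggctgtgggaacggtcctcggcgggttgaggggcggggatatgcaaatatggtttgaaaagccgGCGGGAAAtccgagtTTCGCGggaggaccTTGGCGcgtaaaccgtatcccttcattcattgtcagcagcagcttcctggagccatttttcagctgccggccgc
E2F4: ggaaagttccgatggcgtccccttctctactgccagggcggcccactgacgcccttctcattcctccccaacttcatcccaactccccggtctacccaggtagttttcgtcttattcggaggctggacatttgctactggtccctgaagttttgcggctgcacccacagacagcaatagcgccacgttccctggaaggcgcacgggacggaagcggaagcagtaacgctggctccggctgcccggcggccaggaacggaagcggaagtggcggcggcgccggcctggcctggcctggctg

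The 8-letter motif was present in the windows of E2F1, E2F2, E2F3, and RBL1. E2F1 had 2 matches, from -33 to -26 on the opposite strand and from -20 to -13 on its own strand, counted in bases from the start. RBL1 also had 2 matches, from -26 to -19 and from -16 to -9, and E2F2 had 1, from -42 to -35. E2F3 had 1 match on the opposite strand, from -53 to -46, at the first of its 2 starts. MYBL2 held the core alone, from -41 to -36, and E2F7 held the core at 2 places. These letters were not in the windows of E2F4 and RBL2. The 8-letter motif was thus in 4 of 8 matched genes (50%), beside 3.99% of the 27305 genes of the promoter table and 6.68% of the 9717 tested genes with a window. The core was in 6 of the 8 genes (75%), beside 35.1% of the genes of the table and 53.1% of the tested genes with a window. A match describes letters and does not show binding.

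**Figure D1:**
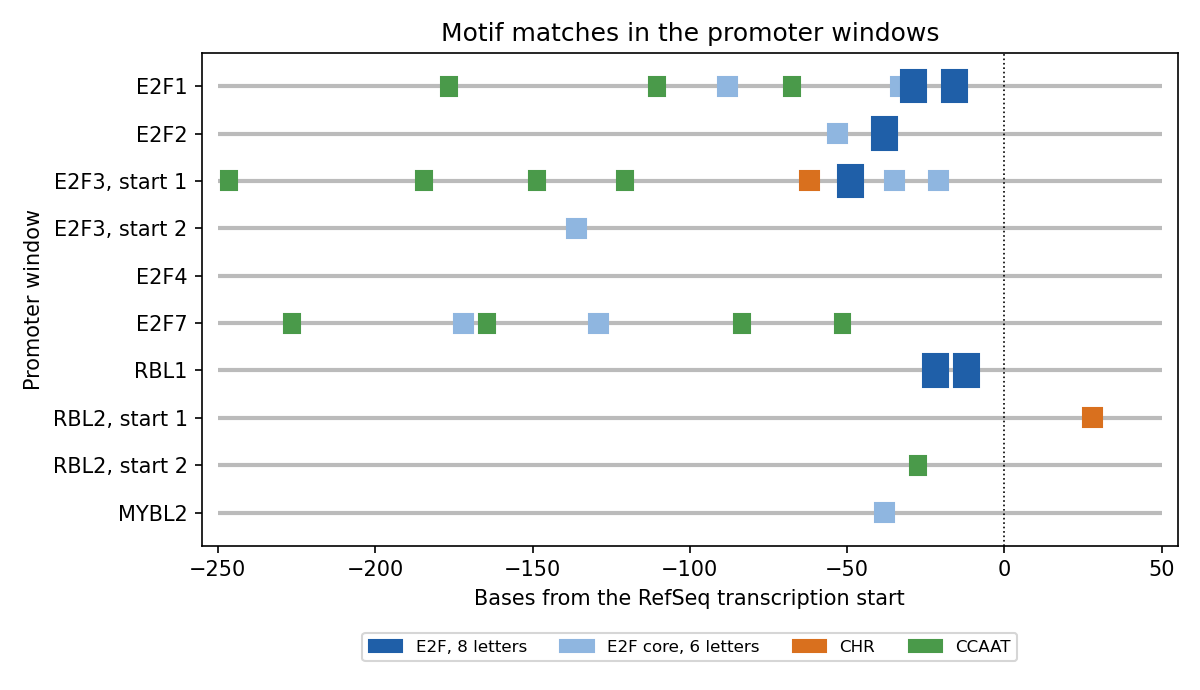
Motif matches in the 10 promoter windows of 8 genes, plotted by bases from the RefSeq transcription start. Dark blue blocks are the 8-letter E2F motif, light blue blocks the 6-letter core, orange blocks the CHR letters TTTGAA or TTCGAA, and green blocks CCAAT, on either strand. The 8-letter matches of E2F1, E2F2, RBL1, and E2F3 all lie between -53 and -9.

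Most of the group was expressed at a lower level after 24 h of BLU6864 than after 6 h. E2F1, E2F2, E2F7, E2F8, RBL1, MYBL2, and FOXM1 fell, which is 7 of 10 genes. E2F2 passed the filter on low counts only through its 6 h libraries, so that nothing is read from its call. Apart from E2F2, 6 genes were lower. E2F3, E2F4, and RBL2 did not pass the call rule, and none passed it in the higher direction. A gene was called when its Benjamini-Hochberg adjusted P in edgeR's quasi-likelihood test, over the 12876 genes tested, was under 0.05 and its log2 fold change (24 h over 6 h) was over 0.5 in absolute size. By this rule 18.4% of all tested genes were lower and 18.1% higher at 24 h. The methods give a P under 0.01 and the same fold cutoff, in the lower direction and with DESeq2. Here these cutoffs were applied to edgeR's unadjusted P in both directions. The same counts of the group were then 7 and 0, beside 17.7% of all tested genes lower and 17.4% higher. With an adjusted P under 0.05 and no fold cutoff, 8 genes of the group, RBL2 being added, were lower and 2, E2F3 and E2F4, were higher, beside 32.6% and 33% of all tested genes. The 2 higher genes also had an unadjusted P under 0.05 in edgeR, and DESeq2 with the fold cutoff called 0 higher. The libraries are bulk RNA, in which fewer cells in a phase of the cycle and less RNA per cell cannot be told apart.

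E2F1 was counted 273 and 291 times at 6 h and 31 and 28 times at 24 h. Both 24 h libraries were far below both 6 h libraries and close to each other. Scaled to library size with edgeR's TMM factors, this was 10.97 ± 0.42 CPM (counts scaled to a library of 1000000; SD, n = 2) at 6 h and 1.111 ± 0.0983 at 24 h. The log2 fold change of E2F1 was -3.30 (SE 0.173, 95% interval -3.65 to -2.94, adjusted P = 2.96e-15), a 9.83-fold lower level. E2F1 (ENSG00000101412) lies at chr20:32263489-32274210 in hg19, the build of the table.

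E2F2, the other activator gene with lower counts at 24 h, had the fewest counts of the group. Its counts were 95 and 133 at 6 h and 16 and 7 at 24 h. The groups did not overlap, but the 24 h libraries differed from each other by more than the counts of E2F1 did. With 7 counts in a 24 h library, E2F2 passed the filter on low counts only through its 6 h libraries. Such a gene had to differ, so that its adjusted P is not read as a result. The log2 fold change of E2F2 (ENSG00000007968, chr1:23832922-23857712) was -3.34 (SE 0.283, 95% interval -3.92 to -2.76, adjusted P = 6.82e-11), with the widest interval of the 10 genes. It was -4.05 without 24 h replicate 1, outside this interval, and -2.84 without 24 h replicate 2.

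The activator gene E2F3 did not fall. It had 867 and 987 counts at 6 h and 1228 and 1237 at 24 h, or 35.99 ± 0.297 and 46.4 ± 0.532 CPM. Each library at 24 h exceeded each one at 6 h by more than the spread between replicates. The log2 fold change of 0.37 (SE 0.0751, 95% interval 0.21 to 0.52, adjusted P = 0.000127) was under the fold cutoff, so that E2F3 (ENSG00000112242, chr6:20402398-20493941) was not called.

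E2F4, the partner of the pocket proteins, was not called either. Its counts were 945 and 1185 at 6 h and 1414 and 1343 at 24 h, or 41.23 ± 3.16 and 51.91 ± 2.75 CPM. The groups did not overlap in CPM or in counts. The log2 fold change of E2F4 (ENSG00000205250, chr16:67226072-67232821) was 0.33 (SE 0.0772, 95% interval 0.17 to 0.49, adjusted P = 0.000534), under the fold cutoff like that of E2F3.

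The pocket protein genes differed from each other. RBL1 had 415 and 439 counts at 6 h and 157 and 156 at 24 h, so that both 24 h libraries were well below both 6 h libraries. The log2 fold change of RBL1 (ENSG00000080839, chr20:35624752-35724398) was -1.49 (SE 0.114, 95% interval -1.73 to -1.26, adjusted P = 8.14e-12), a 2.82-fold lower level. RBL2 had 1868 and 2228 counts at 6 h and 1888 and 1819 at 24 h, which overlap as raw counts. As CPM, RBL2 was at 77.1 and 81.72 at 6 h and at 71.91 and 67.68 at 24 h, where the groups did not overlap. Its log2 fold change was -0.19 (SE 0.071, 95% interval -0.33 to -0.04, adjusted P = 0.0236) and was not called. The adjusted P of RBL2 was over 0.05 with DESeq2 (0.0749), with upper quartile scaling in edgeR (0.0567), without 24 h replicate 2 (0.188), and without 6 h replicate 2 (0.149), in a range of 0.00496 to 0.188 over the alternatives. The RBL2 gene (ENSG00000103479, chr16:53467889-53525561) shares 610 bases with AKTIP in the table's positions, and AKTIP had 454 and 485 counts at 6 h and 455 and 479 at 24 h.

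The atypical repressor genes both fell, to different extents. E2F8 had 354 and 382 counts at 6 h and 24 and 25 at 24 h. This was the largest change of the 10 genes, with a log2 fold change of -3.95 (SE 0.169, 95% interval -4.30 to -3.60, adjusted P = 3.81e-17) and a 15.4-fold lower level, except that without 24 h replicate 1 the value of E2F2 was larger (-4.05). E2F7 had 349 and 453 counts at 6 h and 150 and 129 at 24 h. Its 24 h libraries stayed below both 6 h libraries, with a log2 fold change of -1.56 (SE 0.125, 95% interval -1.82 to -1.31, adjusted P = 2.18e-11). E2F8 (ENSG00000129173) lies at chr11:19245610-19263167 and E2F7 (ENSG00000165891) at chr12:77415027-77459360.

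MYBL2 and FOXM1, which act later in the cycle, were among the more abundant genes of the group at 6 h. MYBL2 had 1648 and 1772 counts at 6 h and 160 and 155 at 24 h, or 66.51 ± 2.14 and 5.931 ± 0.232 CPM. FOXM1 had 1824 and 2113 counts at 6 h and 275 and 319 at 24 h, or 76.39 ± 1.57 and 11.17 ± 0.985 CPM. For both genes the 24 h libraries lay far below the 6 h libraries. The log2 fold change of MYBL2 (ENSG00000101057, chr20:42295754-42345136) was -3.49 (SE 0.0948, 95% interval -3.68 to -3.29, adjusted P = 1.42e-21), an 11.2-fold lower level. That of FOXM1 (ENSG00000111206, chr12:2966847-2986206) was -2.77 (SE 0.0861, 95% interval -2.95 to -2.60, adjusted P = 2.88e-20), a 6.83-fold lower level. FOXM1 overlaps RHNO1 by 783 bases and ITFG2 by 2111 bases. The methods name a stranded library kit and the labels a TruSeq RNA protocol without mention of strand, and the strand setting of the counting is not given in the sources used here, so that the counts of FOXM1 and of RBL2, which overlaps AKTIP, are uncertain to that extent. RHNO1 had 1576 and 1748 counts at 6 h and 1124 and 1074 at 24 h, and ITFG2 had 309 and 324 at 6 h and 351 and 346 at 24 h.

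**Figure D2:**
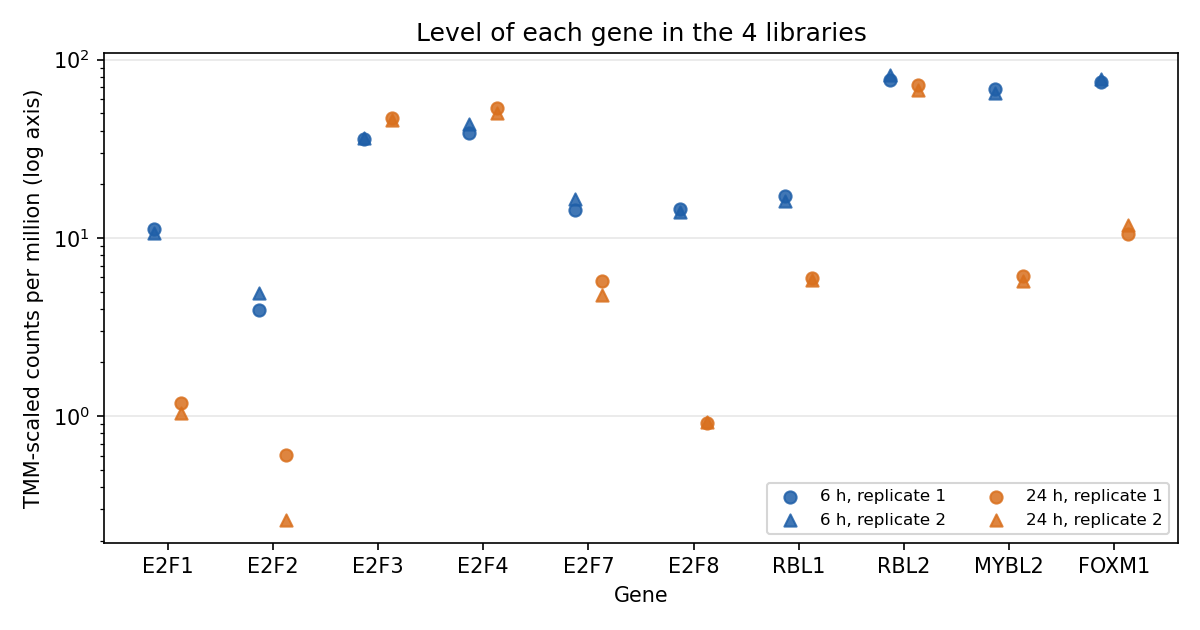
Level of the 10 genes in each library as TMM-scaled CPM, on a log axis. Blue symbols are the 6 h libraries and orange symbols the 24 h libraries, with circles for replicate 1 and triangles for replicate 2. E2F1, E2F2, E2F7, E2F8, RBL1, MYBL2, and FOXM1 are lower at 24 h, while E2F3, E2F4, and RBL2 differ less between the times.

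In CPM no gene of the group overlapped between the times. Of the 10 genes, 8 had both 24 h libraries below both 6 h libraries and 2, E2F3 and E2F4, had both above. Over all tested genes these shares were 40.8% below and 41% above, so that separation alone is common in these libraries. The median log2 fold change of the 10 genes was -2.17, and that of all tested genes was 0.00293. With at least 10 counts required in every library, which leaves out E2F2, the median of the group was -1.56. Within the 6 E2F genes of the group the log2 fold changes ran from -3.95 for E2F8 to 0.37 for E2F3.

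**Figure D3:**
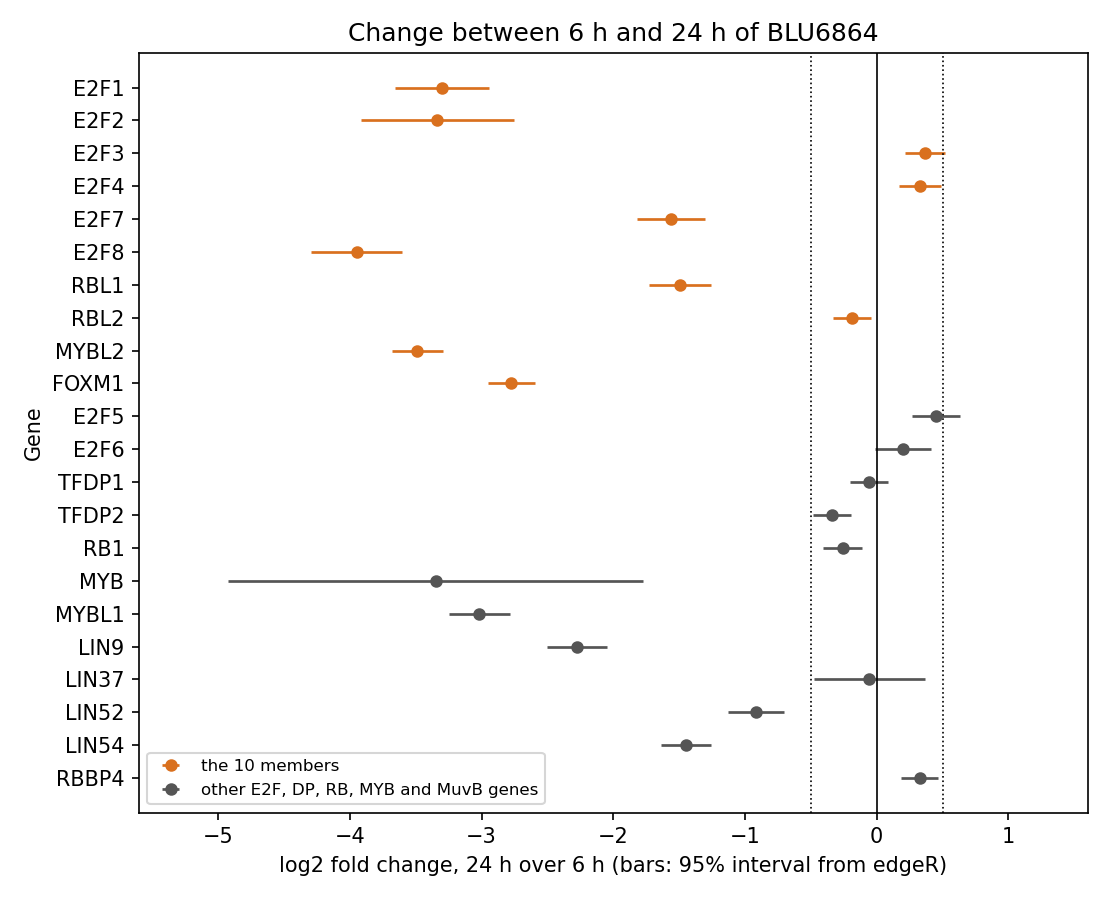
Log2 fold changes at 24 h over 6 h with 95% intervals from edgeR, for the 10 genes (orange) and for 12 other E2F, DP, RB, MYB, and MuvB genes (grey). Dotted lines mark the fold cutoff of 0.5 in either direction. The intervals of E2F3 (0.21 to 0.52), E2F4 (0.17 to 0.49), and RBL2 (-0.33 to -0.04) do not include 0. That of E2F3 crosses the dotted line at 0.5. The 7 genes that fell range from -3.95 to -1.49.

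Ratios within a library, which do not depend on library scaling, also differed between the times. For every 100 RBL2 counts there were 22.2 and 19.7 RBL1 counts at 6 h and 8.32 and 8.58 at 24 h. The log2 ratio differed by -1.31 between the times, with an SD within a time of 0.0894 (exact permutation P = 0.333, two-sided). For every 100 E2F4 counts there were 38.9 and 35.8 counts of E2F1 and E2F2 together at 6 h and 3.32 and 2.61 at 24 h. This log2 ratio differed by -3.66, with an SD within a time of 0.186 (exact permutation P = 0.333, two-sided). It restates the falls of E2F1 and E2F2, so that it adds no separate result. Of these, E2F2 passed the filter on low counts only through its 6 h libraries, and nothing is read from its part. With the more abundant activator gene E2F3 added there were 131 and 119 counts at 6 h for every 100 E2F4 counts. At 24 h there were 90.2 and 94.7, a log2 difference of -0.43 (SD within a time 0.0759). None of these ratios overlapped between the times, and 0.333 is the smallest P that 2 libraries against 2 allow. Counts of different genes also depend on their lengths, so that a ratio is compared here between times and not read as a ratio of transcripts.

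**Figure D4:**
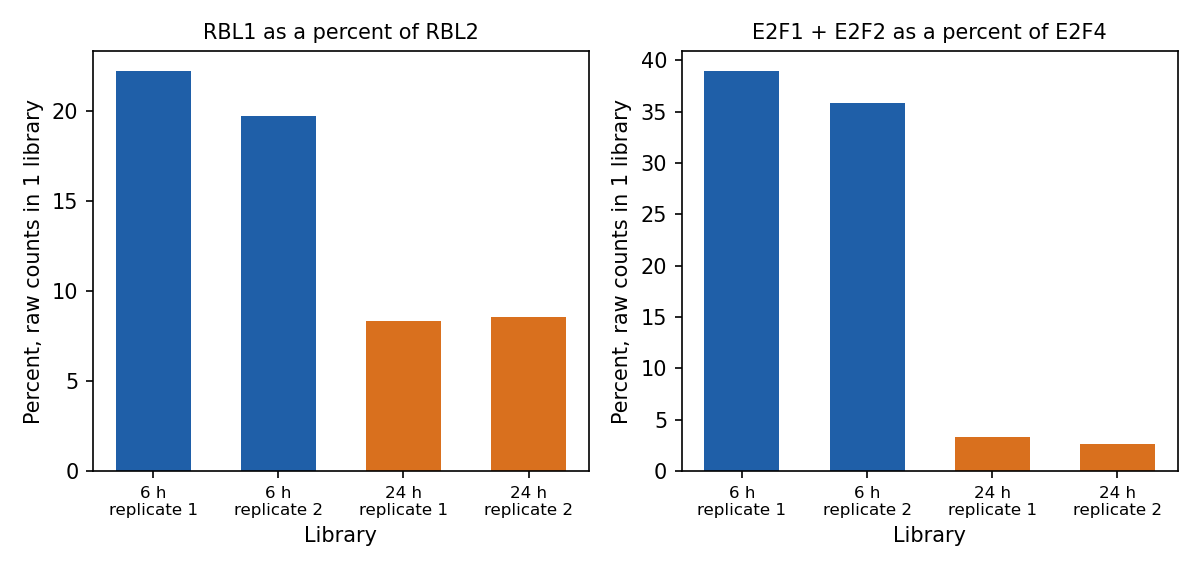
Raw counts of RBL1 as a percent of RBL2 (left) and of E2F1 and E2F2 together as a percent of E2F4 (right), with a bar for each library. Blue bars are 6 h and orange bars 24 h. Both ratios are lower in both 24 h libraries than in both 6 h libraries.

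To compare levels between genes, CPM was divided by the length of the Ensembl canonical transcript. At 6 h MYBL2 was highest, at 24.9 CPM per kilobase, followed by FOXM1 at 21.5, E2F4 at 19.5, and RBL2 at 16.4 CPM per kilobase. E2F3 was at 7.15, E2F1 at 4.08, E2F8 at 3.86, RBL1 at 2.92, E2F7 at 2.71, and E2F2 at 0.847 CPM per kilobase at 6 h. Among neighbours in this order, RBL1 and E2F7 overlapped between libraries. At 24 h the order had changed, and E2F4 was highest at 24.6 CPM per kilobase, followed by RBL2 at 14.4 and E2F3 at 9.21. FOXM1 at 3.14 and MYBL2 at 2.22 CPM per kilobase came after these at 24 h, and RBL1 at 1.04, E2F7 at 0.918, E2F1 at 0.413, E2F8 at 0.249, and E2F2 at 0.0837 were lower still. No neighbours in the 24 h order overlapped. With coding length in place of transcript length, FOXM1 at 33.4, E2F4 at 33.3, and MYBL2 at 31.7 CPM per kilobase led at 6 h, E2F3 at 25.8 came before RBL2 at 23.2, and E2F7 came before E2F8 at 5.5 and RBL1 at 5.19. At 24 h E2F4 still led with coding length, at 41.9 CPM per kilobase, but E2F3 at 33.3 came before RBL2 at 20.4, and E2F7 at 1.92 before RBL1 at 1.84. The order of these genes thus depends on the length used.

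Of the 13 other E2F, DP, RB, MYB, and MuvB genes, 12 were tested. Of these 5 passed edgeR's rule in the lower direction, 4 of them apart from MYB, which passed the filter on low counts only through its 6 h libraries, and 0 in the higher direction, beside 18.4% and 18.1% of all tested genes. Their median log2 fold change was -0.299. The MYB family gene MYBL1 had 852 and 854 counts at 6 h and 104 and 114 at 24 h, with a log2 fold change of -3.02. Genes of the MuvB core also fell, with log2 fold changes of -2.27 for LIN9, -1.45 for LIN54, and -0.91 for LIN52. MYB had only 10 and 12 counts at 6 h and 1 and 1 at 24 h, and a gene that enters the test through its higher group alone had to differ, so that nothing is read from its call. Without either 6 h library it was not tested, which left 4 genes lower. The ratio of its counts at 6 h to 24 h, scaled to library size, was 11.4, with an exact interval of 2.79 to 99.6 that covers counting error only, and the median of the list stays at -0.299 with MYB set to the floor of 3 counts in each 24 h library. The MuvB genes LIN37 at -0.06 and RBBP4 at 0.33 were not called, nor were RB1, the remaining pocket protein gene, at -0.26, and the DP genes TFDP1 at -0.06 and TFDP2 at -0.34. E2F5, a close relative of E2F4, had a log2 fold change of 0.45 and E2F6 of 0.20. With no fold cutoff 7 genes were lower, TFDP2 and RB1 being added, and 2 genes, E2F5 and RBBP4, were higher, beside 32.6% and 33% of all tested genes. The count of 2 was the same at an unadjusted P under 0.05, and DESeq2 with the cutoff called 0. E2F5 had 481 and 556 counts at 6 h and 753 and 709 at 24 h, and it was called higher when 24 h replicate 2 was left out, which made the count 1 in place of 0. TFDP3 had 0 counts in all libraries.

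Of the 9 listed cyclins and kinases that act on pocket proteins 8 were tested. Of these 3 fell and 2 rose, beside 18.4% of all tested genes lower and 18.1% higher, and the median log2 fold change was -0.0562. CCNA2, the A-type cyclin of S phase and later, had 3126 and 3368 counts at 6 h and 137 and 163 at 24 h, with a log2 fold change of -4.48. CCNE2 and CDK2 had log2 fold changes of -2.43 and -1.09. The D-type cyclin CCND1, with 1135 and 1347 counts at 6 h and 2106 and 2147 at 24 h, rose by 0.73 on the log2 scale, and its partner kinase CDK4 rose by 0.68. CCND3 at 0.06, CCNE1 at -0.17, and CDK6 at 0.42 were not called. With no fold cutoff CDK6 was added, so that 3 genes were lower and 3 higher, beside 32.6% and 33% of all tested genes. The call of CDK6 also changed without 24 h replicate 1 or without 6 h replicate 2. CCND2 had 3 and 4 counts at 6 h and 0 and 1 at 24 h and was not tested.

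Among the 7 genes for CDK inhibitors, 5 fell and 1 rose, beside 18.4% of all tested genes lower and 18.1% higher, and the median log2 fold change was -0.529. CDKN1C, which encodes p57, rose 2.83-fold, from 325 and 362 counts at 6 h to 946 and 1059 at 24 h. The genes for inhibitors of CDK4 and CDK6 fell, with log2 fold changes of -1.26 for CDKN2D, -0.97 for CDKN2B, -0.87 for CDKN2C, and -0.53 for CDKN2A. CDKN1A, which encodes p21, had a log2 fold change of -0.53 and was called as well, and CDKN1B, which encodes p27, at -0.24 was not. CDKN1A and CDKN2A lie just past the cutoff, and with upper quartile scaling 3 of the 7 genes were called lower in place of 5.

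Most listed target genes fell too. Of 24 listed G1/S target genes of E2F 23 were tested and 21 fell, beside 18.4% of all tested genes lower. UHRF1 was not analysed here, and the median was -1.72 on the log2 scale. The largest change was that of the replication factor CDC45, with 476 and 540 counts at 6 h, 22 and 22 at 24 h, and a log2 fold change of -4.57. The ribonucleotide reductase subunit RRM2 had a log2 fold change of -3.92, the origin factors ORC1 and CDC6 had -2.84 and -2.80, and the replicative helicase subunit MCM6, the smallest called, had -0.51. With upper quartile scaling, without 24 h replicate 2, and without 6 h replicate 1, MCM6 was not called and 20 genes were lower. SLBP at 0.05 and MSH6 at 0.30 were not called. With no fold cutoff 21 genes were lower and 1, MSH6, was higher, beside 32.6% and 33% of all tested genes. All 24 listed G2/M target genes of MYBL2-MuvB and FOXM1 fell, with a median of -4.45, beside 18.4% of all tested genes lower. Among them CDC25C, a phosphatase that activates CDK1, had 892 and 938 counts at 6 h, 17 and 17 at 24 h, and a log2 fold change of -5.79. The spindle kinase gene NEK2 had -5.28 and ASPM -5.11, and ECT2 at -0.84 changed least. CKS1B stands on 2 rows that may share reads, and its larger row was counted. The median of the G2/M list lay below the log2 fold changes of MYBL2 and FOXM1 themselves, and whether the targets differ from their regulators was not tested.

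**Figure D5:**
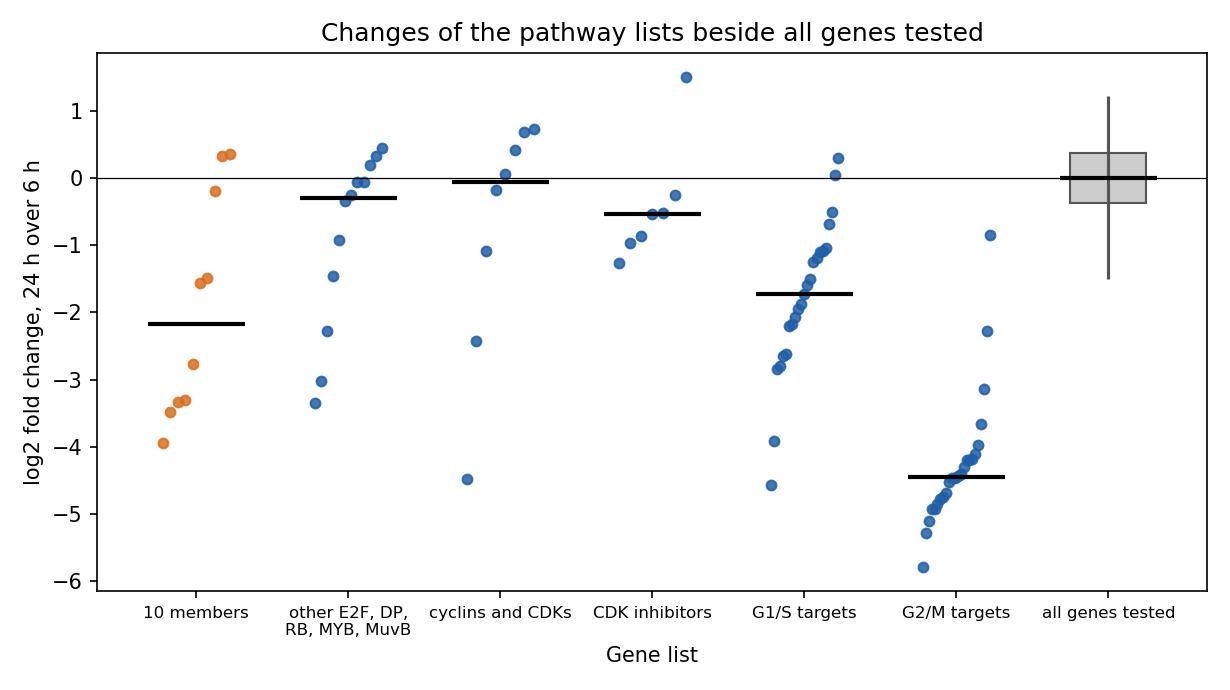
Log2 fold changes at 24 h over 6 h of the 10 genes (orange) and of 5 lists of pathway genes (blue), with a point for each tested gene and a black line at each median. The grey box spans the 25th to the 75th percentile of all tested genes (-0.374 to 0.373) and its line the 5th to the 95th (-1.5 to 1.23). The medians are -2.17 for the 10 genes, -1.72 for the G1/S targets, and -4.45 for the G2/M targets. With at least 10 counts required in every library, which leaves out E2F2, the median of the group is -1.56. Its order beside the G1/S median is therefore not read as a result.

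The promoter letters of the target lists were searched in the same way. The 8-letter E2F motif was in 14 of 21 G1/S target genes with a window (66.7%) and in 2 of 20 G2/M target genes (10%). The CHR letters TTTGAA or TTCGAA, known from promoters bound by MuvB, were in 2 of 21 G1/S genes (9.52%) and 14 of 20 G2/M genes (70%), beside 19.5% of the genes of the table and 15.5% of the tested genes with a window. In the group itself the CHR letters were in E2F3 and RBL2, which is 2 of 8 genes (25%). CCAAT was in 4 of the 8 genes (50%), in 16 of 21 G1/S genes (76.2%), and in 17 of 20 G2/M genes (85%), beside 39.7% of the genes of the table and 43.5% of the tested genes with a window. Over all tested genes with a window, the 8-letter motif was in 8.49% of those called lower and 5.3% of those called higher.

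For each gene, the 2 tested genes with the most similar profile over the 4 libraries were found by Euclidean distance between centred log2 CPM, among genes with a mean count of at least 100. Nearest to E2F1 were TICRR (distance 0.0391) and DTL (0.0709). E2F8 was nearest to RRM2 (0.0846) and RFC5 (0.101), and MYBL2 to EXO1 (0.0522) and NOX5 (0.0589). FOXM1 was nearest to MPP7 (0.0473), RBL1 to NDC1 (0.0609) and ADAM12 (0.0638), and E2F7 to MYCBP (0.0687) and CHEK2 (0.109). E2F2 had the most distant neighbours, MCM10 (0.2) and MMP3 (0.28). Of the genes that were not called, E2F3 was nearest to ALG1 (0.0166) and PDGFA (0.018), E2F4 to WDR73 (0.0238) and ZNF668 (0.0366), and RBL2 to NFKBIE (0.0142) and TTC1 (0.0166). Over 4 libraries at 2 times such a distance mostly reflects the size of the change.

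Of the markers of the labelled thyroid cancer cells, some were at 0. The thyroid factor gene PAX8 was abundant, with 19124 and 22978 counts at 6 h and 20035 and 21660 at 24 h, whereas NKX2-1 and TSHR had 0 counts in all libraries and SLC5A5 had 2, 7, 3, and 3. FOXE1 rose by 0.84 and TG fell by 1.09 on the log2 scale, HHEX at -0.28 was not called, and the thyroid markers listed summed to 816.2 and 869.9 CPM at 6 h and 791.7 and 836.4 at 24 h. The 6 epithelial markers summed to 119.1 and 114 CPM at 6 h and 128.1 and 127.4 at 24 h, with the keratin KRT8 at 1724, 1807, 1720, and 1811 counts, EPCAM at 11, 6, 1, and 1, and CDH1 at 8, 3, 1, and 3. Among the other keratins KRT7 rose by 0.84 on the log2 scale, KRT19 fell by 1.59, and KRT18 at 0.37 was not called. The white blood cell markers listed summed to 2.022 and 1.761 CPM at 6 h and 3.504 and 3.423 at 24 h, nearly all of it CD14, with PTPRC at 1, 5, 3, and 0 counts and CD3E at 0, 0, 1, and 0. The 4 fibroblast markers summed to 21.5 and 22.37 CPM at 6 h and 6.666 and 8.669 at 24 h, from COL1A1 and PDGFRB, which both fell, while COL1A2 was at 0 and DCN at 0, 0, 1, and 0 counts. Of the endothelial markers VWF had 16, 11, 3, and 5 counts and CDH5 1, 0, 1, and 0, and PECAM1 was not analysed here. The part of these shifts in the changes of the E2F group was not tested.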

How the data were processed

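RNA-seq libraries of TPC1 cells were compared between 24 h and 6 h of BLU6864, with 2 libraries per time. The authors aligned reads to hg19 with STAR (2.3 in the submitters' processing notes, and a later version in the methods) and deposited raw counts per gene, and the counting program and its strand setting are not given in the sources used here. The labels describe single-end reads and the methods paired-end reads. The authors also deposited a normalized signal per gene, the count over the library's size factor, which was used only to check the counts, and the results of a DESeq2 comparison, which were not used. The number of unused columns with values per sample was 0.

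Counts of all 20372 genes entered edgeR 4.0.16 under R 4.3.3 (filterByExpr, TMM, quasi-likelihood test, time as the factor). The filter kept 12876 genes, which hold 99.97% of the counts. P values were adjusted by Benjamini-Hochberg over all tested genes. Spearman correlations between libraries were at least 0.998 within a time and at most 0.9406 between times. Replicates differed by more than sampling noise (chi-square over its degrees of freedom, 10 for the 6 h pair and 7.65 for the 24 h pair). Nothing in the labels says that they came from separate cultures, so that P values measure the spread between these libraries, which may be technical. Transcript and coding lengths came from GENCODE 44 and promoters from RefSeq (GRCh38.p14). Code was tested on simulated data. Figures used Python 3.11.15 with matplotlib 3.10.9.

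The members and lists were chosen with earlier results of these data known. Named genes were the 10 members, the called genes or the largest change of each list, and the 2 nearest genes of each member, and other names, such as genes of a list that were not called, were added after their values were seen. Some single genes that this rule covers are not reported here. The 6-letter E2F core was added after the promoter sequences were seen. Alternatives were DESeq2 1.42.0, library size alone, upper quartile scaling, 2 other filters, the replicate block, other call rules, and each library left out in turn.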

Additional observations from a re-analysis of the deposited data

How the results depend on the processing

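The count of 7 lower genes held with DESeq2, upper quartile scaling, library size alone, the cutoffs of the methods, an adjusted P under 0.01, no count filter, and without any single library. With at least 10 counts in every library E2F2 was not tested, since a 24 h library has 7 counts of it, so that 6 were lower and the median log2 fold change moved to -1.56. With no cutoff on the fold change 8 were lower, RBL2 being added, and 2 were higher, E2F3 and E2F4. Under the other alternatives the median ran from -2.228 to -2.139. Without each library in turn, the log2 fold change of E2F2 ran from -4.053 to -2.842 and that of E2F4 from 0.2551 to 0.4083, and the lone library of a time is then assumed to vary like the other time. The adjusted P of RBL2 ran from 0.004963 to 0.1882 over the alternatives in edgeR and DESeq2. Leaving out a library gave -1.395 to -1.222 for the log2 ratio of RBL1 to RBL2 and -3.84 to -3.489 for that of E2F1 and E2F2 to E2F4, which was -0.43 with E2F3 added to the numerator, an alternative chosen after the data were seen.

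With the replicate number as a replicate block, 7 genes were lower, 0 were higher, and the median was -2.168. The deviations of same-numbered libraries had a correlation of 0.0844, which cannot show whether these libraries shared a culture or a batch.

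Over all genes, 2364 were lower and 2334 higher, and the block gave 2377 and 2356. DESeq2 gave 2185 lower and 2089 higher, library size alone 2578 and 2127, and upper quartile scaling 2202 and 2497. All 10 levels per kilobase moved with coding length. The depth of 23917056 to 27457040 counts limits genes with few counts, such as E2F2 and MYB, with 7 and 1 in a 24 h library.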
